A study of Schizosaccharomyces pombe with 6 samples.

Results

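The hexose transporter family of fission yeast (Schizosaccharomyces pombe) consists of 8 genes, ght1 to ght8, which were taken from the count table by their names. All 8 were found among 6986 genes, and all 8 had enough counts to be tested. RNA was measured in 6 libraries from log-phase cultures grown at 30 ºC in YES, a rich medium that contains glucose. The 3 wild-type libraries came from strain JS 77, whose genotype label is WT. The 3 deletion libraries came from strain AS2300, labelled h- duf89delta::hygR, in which a hygromycin resistance marker replaced duf89, the gene of a metal-dependent phosphatase of metabolite repair. Each group is a single strain. The wild-type libraries were deposited earlier with another series, although the series text says that they were sequenced at the same time, so a difference in strain background or preparation cannot be told apart from the deletion. The deletion replicates are called biological in the labels and those of the wild type are only numbered, so the spread of the wild type may be technical.

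Ght proteins are sugar carriers of the plasma membrane that belong to the major facilitator superfamily and bring in a sugar together with a proton. Fission yeast uses them to take up glucose, fructose and gluconate. Ght5 is known as the high-affinity glucose transporter that cells need for growth when glucose is scarce. Its gene is repressed by the zinc finger protein Scr1 when glucose is plentiful, the AMP-activated kinase Ssp2 relieves this repression, and TORC2 signalling keeps the protein at the cell surface against the arrestin Aly3, which directs it to degradation.

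The members differ in sequence and position in ways that bear on how their reads can be told apart. The annotation describes Ght1 as a high-affinity glucose symporter, Ght2 and Ght6 as glucose and fructose symporters, Ght3 as a gluconate symporter, Ght5 as a high-affinity glucose and fructose symporter, and Ght4, Ght7 and Ght8 as hexose carriers without a stated preference. Their genes have 1 exon each in the RefSeq annotation and code for 518 to 557 residues. Ght5 and Ght8 are the closest pair, with 91.6% identity over 545 aligned residues. Ght3 and Ght4 follow with 86.9%, and the remaining pairs lie between 55.9% (Ght3 and Ght6) and 77.3% (Ght1 and Ght5). Of the 50-base words in the ght5 transcript, 29.6% also occur in ght8, and 24.2% of those of ght8 occur in ght5. Between ght3 and ght4 the shares are 11.8% and 5.65%. Up to 5.97% of the words of ght8 and 6.65% of those of ght5 recur in ght1, ght6 shares at most 1.71% with any other member, and the transcripts of ght2 and ght7 share no such word with any other place in the genome. The sources used here do not give how reads with several matches were counted, so the values of ght5 and ght8 are uncertain. Since ght8 had several times the counts of ght5, reads from the shared words could move the value of ght5 more than that of ght8.

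In wild type most hexose transporter RNA came from one gene. Levels between genes are compared as CPM (counts scaled to library size) divided by the kilobases of coding sequence. Ght8 stood at 801.6 ± 7.15 CPM per kb (SD, n = 3), ght2 at 116.0 ± 5.8 and ght5 at 111.8 ± 16. Ght4 followed at 10.9 ± 0.959, ght1 at 3.51 ± 0.533, ght3 at 2.74 ± 0.37, ght7 at 0.65 ± 0.151 and ght6 at 0.508 ± 0.489. In this order the wild-type libraries of ght2 and ght5 overlapped, as did those of ght1 and ght3 and those of ght7 and ght6. Within each wild-type library, ght1 still lay above ght3 (4.1 against 2.72, 3.35 against 3.12 and 3.07 against 2.38). The order of ght2 and ght5, and that of ght7 and ght6, changed between libraries. The other neighbours were separated in each wild-type library. With transcript length in place of coding length, which matters because the annotated ght4 transcript has a 5′ leader of 1783 bases and 4 members (ght3, ght5, ght6 and ght7) have none, ght5 stood above ght2 (88.9 ± 12.7 against 81.7 ± 4.08) and ght3 above ght1 (2.47 ± 0.333 against 2.02 ± 0.307).

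**Figure D1:**
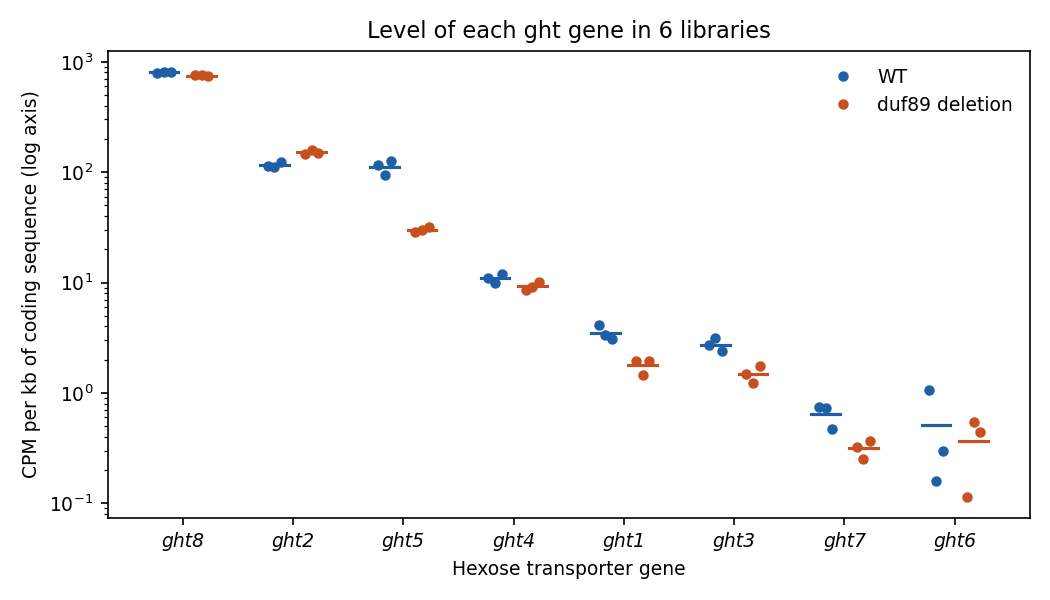
Level of each ght gene in CPM per kb of coding sequence on a log axis; points are libraries (blue, wild type; orange, duf89 deletion), lines are means of 3. Ght8 lies highest in both strains, and ght5 shows the widest gap between the strains, with means of 111.8 and 30.2.

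In the deletion the order per kb of coding sequence was the same down to ght3, but the distances differed. Ght8 stood at 749.1 ± 9.5 CPM per kb and ght2 at 152.1 ± 6.84, whereas ght5 stood at 30.2 ± 1.49 and did not overlap ght2. Ght4 (9.26 ± 0.759), ght1 (1.78 ± 0.276) and ght3 (1.48 ± 0.251) followed. Ght6 (0.369 ± 0.226) and ght7 (0.315 ± 0.0578) overlapped at the bottom.

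Deletion and wild type were compared with edgeR's quasi-likelihood test over 6045 genes with Benjamini-Hochberg adjustment, and a gene was called at an adjusted p below 0.05. Of the 8 members, 5 were lower in the deletion (ght5, ght7, ght1, ght3 and ght8) and 1 was higher (ght2). The background was high, because 53.3% of all tested genes were called, 24.6% as lower and 28.8% as higher (1486 and 1739 genes, or 1050 and 2073 when scaled by total counts). The median log2 fold change was -0.67 over the 8 members and 0.00 over all tested genes. The count of lower members was 3 when any one of wild-type replicates 1 and 2 and deletion replicates 1 and 2 was left out. In CPM all deletion libraries lay below all wild-type libraries in 5 members and above them in 1, a separation that 30.4% and 32.9% of all tested genes showed, 63.3% in either direction. In these bulk samples, less RNA per cell and fewer cells with the RNA cannot be told apart.

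Transcripts of ght5, the high-affinity glucose transporter, fell most in the family. Wild-type libraries held 3432, 3004 and 3894 raw counts, and deletion libraries held 1028, 1002 and 1100. Each deletion library held far fewer counts than the lowest wild-type library, and the deletion libraries lay close together. On the CPM scale, ght5 measured 183.5 ± 26.3 in wild type and 49.6 ± 2.45 in the deletion (SD, n = 3 each), which is 3.7-fold lower (log2 fold change -1.89, SE 0.10, adjusted p = 1.6e-06). Of the 6045 tested genes, 40 had a log2 fold change as low as that of ght5 or lower, ght5 included (0.662%). It passed under all 19 alternative settings, with an adjusted p of at most 3.7e-05. The authors' deposited table gives a log2 fold change of -1.91 for ght5, with a larger standard error of 0.25 and an adjusted p of 2.7e-12.

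The near copy ght8, whose substrate preference is not stated, barely differed. Wild-type libraries held 23596, 25801 and 24954 counts of it, and deletion libraries 26960, 25241 and 25562. After scaling to library size, these became 1305, 1328 and 1320 CPM against 1243, 1238 and 1214 CPM, so that the groups did not overlap but were close. The log2 fold change was -0.10 (SE 0.04, adjusted p = 0.049). This call was not firm: cyclic loess scaling, by which fold changes are centred along abundance, turned the direction (0.08, adjusted p = 0.072), and 12 of 19 alternatives ended the call, among them each library left out in turn. The authors' deposited table gives -0.12 with an adjusted p of 0.029.

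Because reads from the shared parts of ght5 and ght8 could be assigned to either, their counts were also summed into 1 feature. The summed counts fell (log2 fold change -0.23, adjusted p = 0.0012, edgeR). This sum does not depend on how reads were divided between the 2 genes, but reads discarded for several matches would be missing from it. Most of the sum is ght8, whose own shift was not firm, and the sum was not fitted under the other settings. The sum over ght1, ght5, ght6 and ght8, the members joined by shared 50-base words, measured -0.23 as well (adjusted p = 0.0011), and that over ght3 and ght4 measured -0.35 (adjusted p = 0.012).

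Ght2, a glucose and fructose symporter, was the only member that rose. It had 3312, 3436 and 3688 counts in the wild-type libraries, against 5085, 5203 and 5029 after deletion. All deletion libraries lay above all wild-type libraries, and the shift exceeded the spread within each group. In CPM, the level went from 185.1 ± 9.25 to 242.8 ± 10.9, or 1.31-fold higher (log2 fold change 0.39, SE 0.05, adjusted p = 0.00052). Over all 21 alternatives the value lay between 0.33 and 0.48 and passed.

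**Figure D2:**
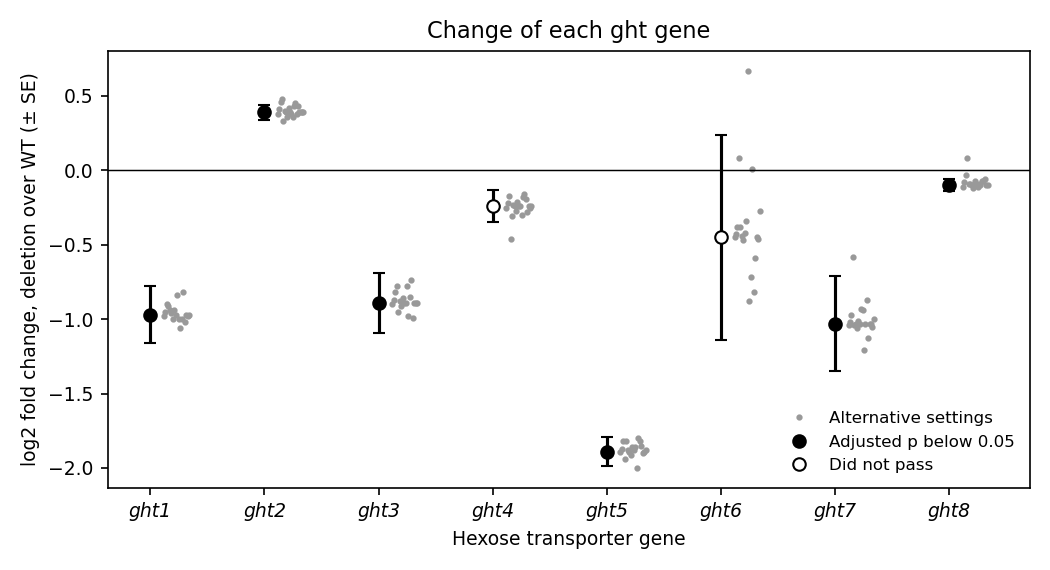
Log2 fold change of each ght gene, deletion over wild type, with its standard error (large symbols; filled, adjusted p below 0.05); small grey points are the alternative settings. Ght5 is set apart at -1.89, ght2 is the member above 0, and the grey points of ght6, ght8 and ght7 spread across or towards 0.

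Ratios between members within a library do not depend on scaling between libraries. The ght8 to ght5 count ratio was 6.88, 8.59 and 6.41 in the wild-type libraries and 26.2, 25.2 and 23.2 in the deletion libraries. For ght2 to ght5 it was 0.965, 1.14 and 0.947 against 4.95, 5.19 and 4.57. Ght2 and ght5 thus gave nearly equal counts in wild type, while each deletion library held several counts of ght2 for each of ght5. The ght8 to ght2 ratio moved the other way, from 7.12, 7.51 and 6.77 to 5.3, 4.85 and 5.08. All 3 ratios separated the groups completely, with log2 differences of 1.78, 2.27 and -0.49. Each exact two-sided permutation test gave p = 0.1, the smallest p that 3 libraries against 3 allow. After adjustment over the 3 ratios the permutation p remained 0.1. The pairs were taken after the fold changes of these members were known, and the third ratio follows from the other 2. Their separation is therefore not support beyond those fold changes.

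**Figure D3:**
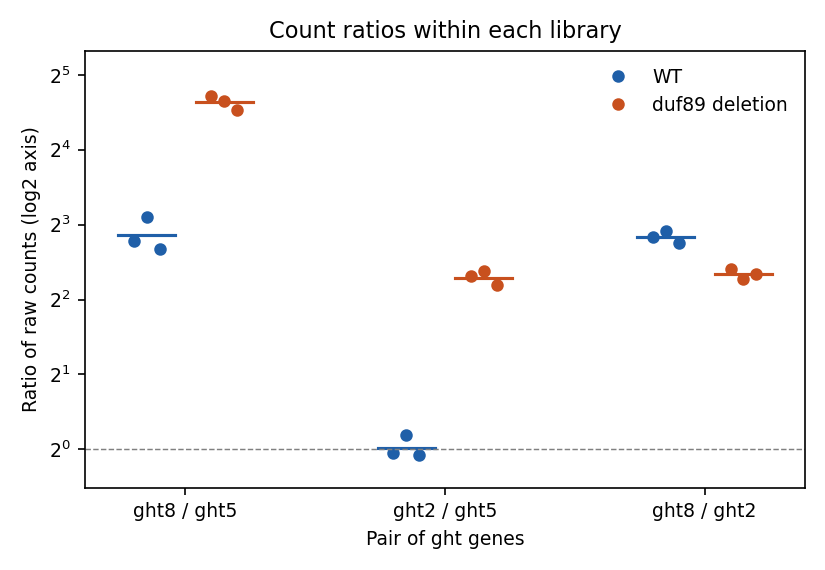
Ratio of raw counts of pairs of ght genes within each library on a log2 axis; points are libraries, lines are geometric means, and the dashed line marks equal counts. Wild-type libraries lie near equality for ght2 over ght5, and deletion libraries lie between 4.57 and 5.19.

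The family as a whole took up slightly less of the deletion libraries. Summed over the members, wild-type libraries held 1711, 1689 and 1752 CPM, against 1546, 1563 and 1529 CPM after deletion. Ght8 made up 76.8% ± 1.69 of the family's counts in wild type and 79.7% ± 0.662 in the deletion, and ght2 10.8% ± 0.337 and 15.7% ± 0.583. The share of ght5 was 11.1%, 9.16% and 11.8% in the wild-type libraries, against 3.07%, 3.14% and 3.42% after deletion, a difference of -7.46 percentage points (exact permutation test, two-sided p = 0.1, the smallest possible with n = 3 each). The loss of ght5 from the family total (183.5 to 49.6 CPM) was larger than the gain of ght2 (185.1 to 242.8 CPM). Ght8 also took part in the lower total (1318 to 1232 CPM), although its own shift was not firm. The lower family sum is therefore not that of ght5 alone.

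Among the weakly expressed members, ght1 and ght3 were lower in the deletion. Ght1, the other transporter annotated as high-affinity for glucose, had counts of 124, 109 and 97 in the wild-type libraries, against 70, 50 and 69 after deletion. The groups did not overlap (5.87 ± 0.891 against 2.99 ± 0.462 CPM), and the log2 fold change was -0.97 (SE 0.19, adjusted p = 0.0028). Ght3, the gluconate transporter, had counts of 82, 101 and 75 against 53, 42 and 61. Its groups did not overlap either. Its level of 4.57 ± 0.617 CPM in wild type became 2.47 ± 0.419, which is 1.85-fold lower (log2 fold change -0.89, SE 0.20, adjusted p = 0.0049). Both passed under every alternative that tested them, 19 each.

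The hexose transporter genes ght7, ght4 and ght6 gave less certain values. Ght7 had between 8 and 22 counts in a library, 21, 22 and 14 in wild-type libraries against 11, 8 and 12 after deletion, and the groups did not overlap. Its log2 fold change was -1.03 (SE 0.32, adjusted p = 0.021). The call was lost with DESeq2 (adjusted p = 0.11), with cyclic loess (-0.58, adjusted p = 0.16) and without wild-type replicate 1 (-0.93, adjusted p = 0.067) or 2 (-0.94, 0.077) or deletion replicate 1 (-1.03, 0.061) or 2 (-0.87, 0.080). In the authors' deposited table ght7 had an adjusted p of 0.052. Ght4 had 332, 324 and 376 counts in wild-type libraries against 313, 309 and 356 after deletion, with CPM values that overlapped (18.3 ± 1.61 and 15.5 ± 1.27). Its log2 fold change of -0.24 (SE 0.11) did not pass (adjusted p = 0.079), but did with GC-corrected offsets (-0.31, adjusted p = 0.026), with cyclic loess (-0.46, adjusted p = 0.0028) and with the replicate number as a block (-0.24, adjusted p = 0.035).

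Ght6 had 31, 5 and 9 counts in wild-type libraries against 4, 18 and 15 after deletion, so the groups overlapped widely. Its log2 fold change of -0.45 (SE 0.69, adjusted p = 0.60) turned to 0.67 (adjusted p = 0.41) without wild-type replicate 1, to 0.01 without deletion replicate 1 and to 0.08 with cyclic loess. No difference in ght6 was detectable at this depth. The antisense RNA ght6-antisense-1, which overlaps the gene on the other strand, had many more counts, 679, 817 and 886 in wild-type libraries against 1160, 1163 and 1257 after deletion. It was higher in each deletion library, with 42.2 ± 4.66 CPM in wild type and 56.7 ± 3.11 CPM after deletion. Its log2 fold change was 0.43 (SE 0.09, adjusted p = 0.0034). The libraries were made with a stranded kit, but the sources used here do not give the strand setting of the counting, so reads of ght6 and of its antisense RNA cannot be told apart with certainty. Antisense RNAs with counts also overlap ght4: SPNCRNA.1318 was lower in the deletion (-0.67, SE 0.20, adjusted p = 0.019) and SPNCRNA.1319 did not pass (0.30, SE 0.16, adjusted p = 0.14). Cyclic loess (-0.56, adjusted p = 0.051) and leaving out wild-type replicate 2 (-0.56, 0.085) or deletion replicate 1 (-0.60, 0.081) or 3 (-0.54, 0.089) ended the call of SPNCRNA.1318. SPNCRNA.1121, annotated as an intergenic RNA, overlaps ght1 on the other strand and had at most 4 counts.

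Members on chromosome III lie near each other, in the order ght6, ght5, ght8 and ght1. The stretch from ght6 to ght1 holds 25 annotated features, of which 14 have a line in the count table. It was examined after the values were known. Of the 8 tested features between and beside the transporters, 2 were higher and 2 lower, a share near the 53.3% called over all tested genes. SPCC1235.18, a dubious open reading frame directly before ght5 on the same strand, fell from counts of 26, 34 and 37 to 14, 14 and 11 (log2 fold change -1.47, SE 0.27, adjusted p = 0.0019). The gene dga1 on the other side of ght5, which codes for a diacylglycerol acyltransferase of fat storage, did not pass (-0.07, SE 0.04, adjusted p = 0.22), except with GC-corrected offsets (-0.12, adjusted p = 0.048), and measured 0.00 with total counts. SPNCRNA.1120, a non-coding RNA between ght8 and ght1, fell from 14, 11 and 17 counts to 3, 6 and 5 (-1.72, SE 0.40, adjusted p = 0.0060). SPCC1235.17, a second dubious reading frame, rose (0.51, SE 0.11, adjusted p = 0.0036), as did the ubiquitin ligase gene dbl5 next to ght8 (0.66, SE 0.10, adjusted p = 0.00093).

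**Figure D4:**
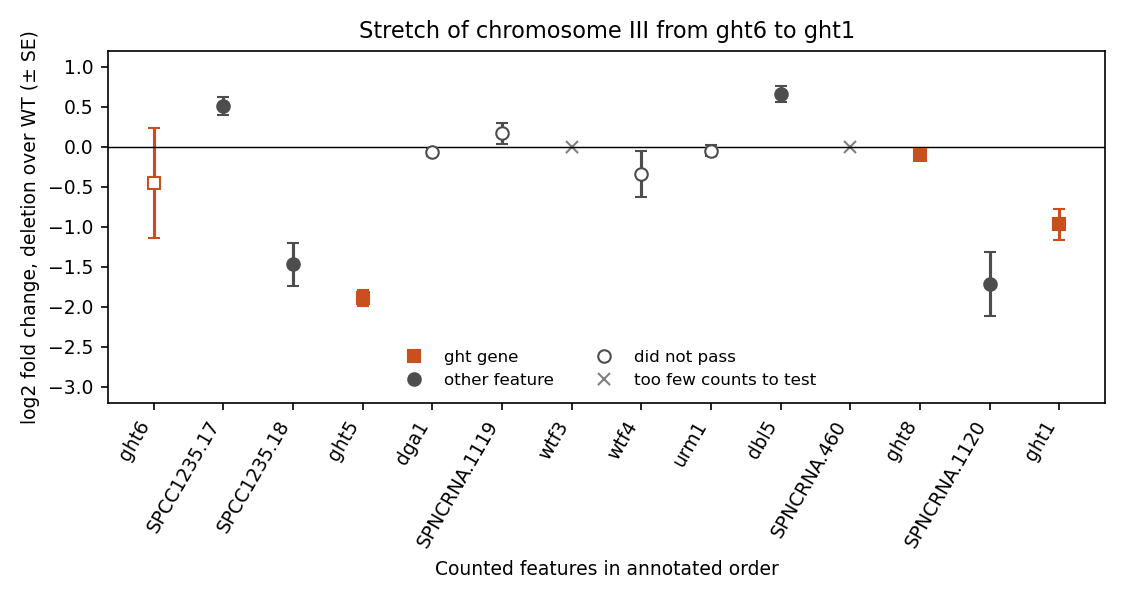
Log2 fold change (deletion over wild type, with standard error) of the 14 counted features from ght6 to ght1 on chromosome III in annotated order, not to genomic scale; squares are ght genes, open symbols did not pass, crosses had too few counts. Ght5 at -1.89 lies between SPCC1235.18 at -1.47 and dga1 at -0.07.

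Around the 8 genes, the nearest annotated features on each side, 2 per side, gave 15 that were in the count table and were not ght genes. Of these, 9 were tested, 3 were higher and 3 lower, beside 28.8% higher and 24.6% lower over all tested genes. Besides those already named, SPBC1348.12, a predicted transcription factor gene beside ght7, rose (0.72, SE 0.16, adjusted p = 0.0043). Many annotated non-coding RNAs had no line in the table, so the nearest counted features were also taken, a set chosen after the data were seen, in which 7 of 19 tested were higher and 6 lower. With so many calls over all genes, neither count sets the neighbours apart. Both genes of U1 snRNP proteins beside ght2 rose with it, usp102 (0.44, SE 0.10, adjusted p = 0.0062) and usp105 (0.53, SE 0.09, adjusted p = 0.0018), and atg5, an autophagy gene, fell (-0.30, SE 0.06, adjusted p = 0.0036). In the same set grt1, a predicted transcription factor gene near ght7, fell (-0.91, SE 0.17, adjusted p = 0.0020).

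Further genes of hexose use and glucose sensing were taken as 7 lists, whose counts stand beside 53.3% called, 28.8% higher and 24.6% lower over all tested genes, with a median log2 fold change of 0.00. Whether the count of any list differs from these shares was not tested. Of 8 genes of hexose phosphorylation and gluconate use, 2 rose and 5 fell (median log2 fold change -0.23). Hxk2, a hexokinase, rose (0.32, SE 0.07, adjusted p = 0.0054), and pfk1, phosphofructokinase, rose (0.22, SE 0.05, adjusted p = 0.0041). The members that fell included zwf1, glucose-6-phosphate dehydrogenase (-0.63, SE 0.04, adjusted p = 9.3e-06), gcd1, glucose dehydrogenase (-0.66, SE 0.12, adjusted p = 0.0017), idn1, gluconokinase (-0.46, SE 0.05, adjusted p = 0.00013), and gnd1, phosphogluconate dehydrogenase (-0.34, SE 0.06, adjusted p = 0.0017). With all 19 alternatives, these 6 calls were kept. The fifth member that fell, hxk1, a hexokinase gene (-0.13, SE 0.05, adjusted p = 0.039), kept its call under only 9 of 19 alternatives. It measured -0.06 with total counts (adjusted p = 0.2) and 0.03 with cyclic loess.

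Among regulators of glucose repression, 1 of 5 rose and 3 fell (median -0.15). Scr1, the repressor that acts on ght5, was lower (-0.26, SE 0.06, adjusted p = 0.0080), and so was rst2, an activator of genes for other carbon sources (-0.45, SE 0.06, adjusted p = 0.00062). The co-repressor gene ssn6 rose (0.42, SE 0.07, adjusted p = 0.0015). Tup12, another co-repressor gene, fell (-0.15, SE 0.05, adjusted p = 0.032), but lost its call under 8 of 19 alternatives. It measured -0.09 with total counts (adjusted p = 0.15) and -0.01 with cyclic loess. In the list of the kinase Ssp1, the AMP-activated kinase and their phosphatases, 3 of 7 fell and 0 rose (median -0.13), although with cyclic loess 1 fell and 2 rose, and 1 fell without wild-type replicate 2 or deletion replicate 2 or 3. Ssp1 itself measured 0.07 (SE 0.05, adjusted p = 0.33), passing with cyclic loess (0.15, adjusted p = 0.02) and without deletion replicate 3 (0.14, adjusted p = 0.024), and ppe1, a phosphatase gene, fell (-0.25, SE 0.05, adjusted p = 0.0018). The call of ssp2 (-0.15, SE 0.06, adjusted p = 0.046) was lost under 11 of 19 alternatives, among them total counts (-0.09, adjusted p = 0.25). That of sds23, a phosphatase inhibitor gene (-0.18, SE 0.05, adjusted p = 0.013), was lost under 6 of 19.

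Of 12 TORC2 and arrestin genes, which act on the Ght5 protein, 2 rose and 3 fell (median -0.08). The number that fell was 1 with total counts or without wild-type replicate 2 or deletion replicate 3, 5 with at least 10 CPM in 3 libraries or with the replicate block, and 6 among protein-coding genes. Aly3, the arrestin gene, fell (-0.23, SE 0.05, adjusted p = 0.0039), and tsc1, of the Tsc complex upstream of TOR, rose (0.24, SE 0.06, adjusted p = 0.0076). The kinase gene tor1 fell (-0.22, SE 0.07, adjusted p = 0.019), a call lost under 6 of 19 alternatives. Sin1 rose (0.21, SE 0.06, adjusted p = 0.02), a call lost under 4 of 19. Among 10 genes of cAMP and protein kinase A signalling, which senses glucose, 2 rose and 1 fell (median 0.00), and 0 fell without deletion replicate 1 or 3. The gene that fell, cgs2, codes for a phosphodiesterase (-0.22, SE 0.07, adjusted p = 0.021). It also lost its call with total counts (-0.15, adjusted p = 0.095), by which cgs1 passed as higher (0.47, adjusted p = 0.045). The G protein gamma subunit gene git11 rose (0.50, SE 0.10, adjusted p = 0.0031) and git7 rose (0.59, SE 0.15, adjusted p = 0.0078), whereas pka1, the catalytic subunit gene, measured -0.04 (adjusted p = 0.59) and 0.03 with total counts.

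Of 7 genes listed as repressed by glucose, 1 rose and 3 fell (median -0.03). Their levels in wild type, grown with glucose, ranged from 5.7 CPM for fbp1 to 405.4 CPM for adh4 and 3286 CPM for mae2. Repression of each member in this medium was therefore not shown. The alcohol dehydrogenase gene adh4 fell (-0.84, SE 0.04, adjusted p = 1.5e-06), as did agl1, the maltase gene (-0.55, SE 0.10, adjusted p = 0.0019), and the malic enzyme gene mae2 rose (0.37, SE 0.06, adjusted p = 0.0012). Gld1, a glycerol dehydrogenase gene, fell as well (-0.50, SE 0.16, adjusted p = 0.022). Its call was lost under 5 of 18 alternatives, among them total counts (-0.43, adjusted p = 0.051). Fbp1, fructose-1,6-bisphosphatase of gluconeogenesis, measured 0.29 (SE 0.14, adjusted p = 0.11). Among 4 other carriers, mae1, for malate and succinate, rose (0.27, SE 0.05, adjusted p = 0.0024), and the maltose and sucrose carrier gene sut1 measured 0.18 (SE 0.09, adjusted p = 0.12). With total counts 3 of the 4 carriers rose, sut1 among them (0.25, adjusted p = 0.033), while with cyclic loess sut1 measured -0.07.

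**Figure D5:**
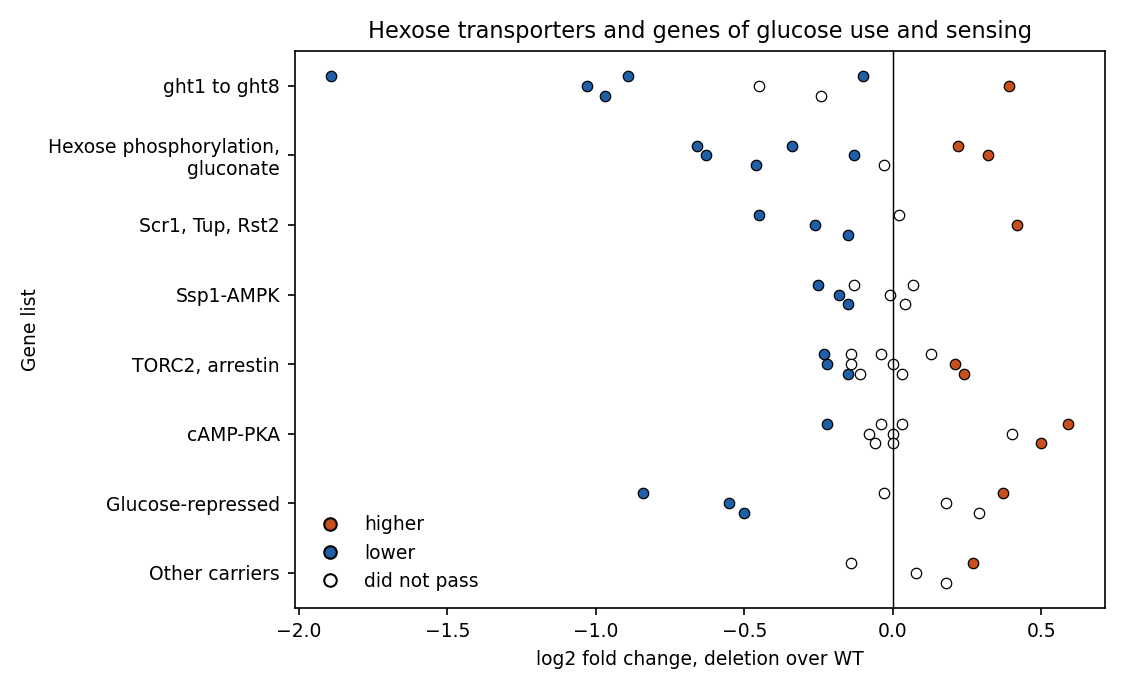
Log2 fold change (deletion over wild type) of the 8 ght genes and of 7 lists of genes for glucose use and sensing; each point is a gene, filled where the adjusted p was below 0.05 (orange higher, blue lower) and open otherwise, with vertical offsets only to separate points. Ght5 lies farther left than any gene of the 7 lists, of which adh4 at -0.84 is the lowest.

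The protein-coding genes whose values over the 6 libraries lay closest to those of ght5, by root mean square difference of log2 CPM from the wild-type mean among 4827 genes, were SPCC70.08c (0.14), hsp9 (0.22), duf89 (0.26), SPBC1271.07c (0.29) and SPAC15E1.02c (0.32). SPCC70.08c is a predicted methyltransferase gene, hsp9 codes for a small heat shock protein, SPBC1271.07c for a predicted N-acetyltransferase and SPAC15E1.02c for a protein of unknown function. SPCC70.08c had 1356, 1459 and 1651 counts in wild-type libraries and 400, 430 and 407 in deletion libraries (log2 fold change -2.01, SE 0.09). Since the groups differ in genotype, this likeness is mostly a likeness of fold change.

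Library totals lay between 18244492 and 21572536 counts. The targeted gene duf89 had 808, 897 and 794 counts in wild-type libraries against 229, 234 and 373 after deletion, lower in each deletion library but not absent (log2 fold change -1.74, SE 0.16, adjusted p = 6.6e-05). Features with mitochondrial identifiers had 727 to 1078 counts in wild-type libraries and 0 in each deletion library, and the part of this difference between the groups in the results above was not tested. Whether reads of both groups were assigned to genes in the same way, ght5 and ght8 included, cannot be told from the counts. Without mitochondrial and rRNA genes, ght5 measured -1.86 and ght2 0.42. Beside the h- label of the deletion strain, 5 genes of M cells were read. They summed to 226.7 to 342.6 CPM in the deletion and 265.1 to 286.5 CPM in wild type. The 3 genes listed for P cells summed to 88.4 to 100.4 and 113.7 to 115.8 CPM, and no gene of either list was at 0. Since genes of both lists had counts in both groups, these values do not settle the label. Of the M genes, 0 were called. Of the P genes, map2 (-0.72, adjusted p = 0.0041) and map4 (-0.24, adjusted p = 0.018) were lower in the deletion. The third, map3, did not pass (-0.18, adjusted p = 0.092). Over all tested genes 53.3% were called.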

How the data were processed

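Counts of reads per gene were deposited by the authors as whole numbers for 6 libraries of polyadenylated RNA (stranded Illumina TruSeq, paired ends, per the labels' protocols). The build ASM294v2 and, without roles, DESeq, DESeq2, HTSeq 0.10.0, SAMtools and HISAT2 2.1.0 appear in the submitters' processing notes. A second table holds the authors' comparison, with average signal as normalized counts, log2 fold changes and errors, a test score and p-values, per the file headers. It is quoted only where named.

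The 6987 lines of counts hold 6986 genes, as 1 identifier occurs on 2 lines, which were summed. RefSeq ASM294v3, a later build, matched 6837 genes (97.9%) and gave names, order, lengths and sequence overlap; no coordinates are printed. The quasi-likelihood test of edgeR 4.0.16 (R 4.3.3) compared the groups without covariates, after TMM scaling and filterByExpr (minimum count 10), with Benjamini-Hochberg adjustment over 6045 genes. An SE was taken as the absolute log2 fold change over the root of the F statistic. CPM use TMM-scaled totals, and log2 CPM a prior count of 2. The test was checked on simulated data. Protein identity came from global alignments in Biopython 1.88. Libraries of a group were not duplicates (chi-square per degree of freedom 5.85 to 15.6).

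Alternatives were DESeq2 1.42.0, limma-voom (limma 3.58.1), other scalings and filters, cyclic loess, GC-corrected offsets and subsets of genes. Further alternatives were an adjusted p below 0.01, a replicate block and each library left out. Summing ght5 and ght8, the nearest counted neighbours and the ratios between members were added after seeing the data. Named genes were drawn from the 8 members, their neighbours, duf89 and the 5 genes most like ght5. Each list gave up to 4 called members by smallest adjusted p, and 7 list genes were named in any case. Others are given for context. Members and lists were chosen with earlier results of these data known. P-values measure only the spread between these libraries.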

Additional observations from a re-analysis of the deposited data

How the results depend on the processing

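The log2 fold changes of ght1, ght2, ght3 and ght5 kept their direction and their side of the threshold under every alternative that tested them (19, 21, 19 and 19). That of ght7 kept its direction but lost its call under 7 of 20. That of ght8 lost its call under 12 of 19 and turned to 0.08 with cyclic loess, and that of ght6 turned to 0.08 with cyclic loess, 0.67 without wild-type replicate 1 and 0.01 without deletion replicate 1 (-0.88 to 0.67 with a library left out). Of the 8 ght genes, 5 were called lower as reported, 2 with at least 10 CPM in 3 libraries (ght1, ght3, ght6 and ght7 were not tested there), 3 with an adjusted p below 0.01, and 3 to 4 with a library left out. Over all genes, 1739 higher and 1486 lower became 1152 and 932 with an adjusted p below 0.01, and 2073 and 1050 with total counts. Of the list members, 18 were lower, but 11 with total counts, 10 with an adjusted p below 0.01, and 11 (without deletion replicate 3) to 18 with a library left out. Of the neighbours, 3 were lower, but 0 with at least 10 CPM and 1 among protein-coding genes; the nearest counted features gave 7 higher and 6 lower. The family sum was 1717 CPM in wild type and 1546 in the deletion, and 1677 and 1583 with total counts. The cause of these shifts was not tested, except that the stricter filter, the protein-coding subset and the stricter threshold leave fewer genes to call.

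The replicate numbers did not pair the samples: deviations of same-numbered libraries correlated at -0.129, -0.167 and 0.257. Libraries with unlike numbers ranged from -0.282 (wild-type replicate 3, deletion replicate 2) to 0.338 (wild-type replicate 1, deletion replicate 2). A pairing in another order was not tested. With the replicate number as a block, 1900 genes were higher and 1633 lower, ght4 passed (-0.24, adjusted p = 0.035) and ght8 did not (-0.10, adjusted p = 0.10). Counts of 4 to 31 in a library limit ght6 and ght7.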
